A study of Mus musculus with 6 samples.

Results

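A set of 34 genes for cholesterol synthesis, cholesterol transport and efflux, and oxysterol metabolism was followed in the brains of mice with systemic inflammation. The members were taken by current or older symbol, and a gene was represented by the transcript cluster (the set of array probes for 1 transcribed locus) with the highest mean over the arrays among those that name the gene alone. By this rule 31 of the 34 genes were found among the 19938 genes named alone on the array. Acat2, Soat1 and Nr1h2 are not analysed here. The LPS group held 3 male C57BL6 mice injected i.p. with 4 mg/kg LPS of Escherichia coli serotype 055:B5, and the control group held 3 male C57BL6 mice injected i.p. with PBS as vehicle. Mice were 7 to 8 weeks old when purchased, and whole brain RNA taken 48 hours after injection was hybridized to Affymetrix Mouse Gene 1.0 ST GeneChips, each mouse having its own array. Values are log2 expression after robust multichip average (RMA) normalization, on which levels of different genes are not comparable. Whole brain holds all brain cell types and vessels, and at 1 time point earlier or later changes are not seen.

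Cholesterol of the adult brain is made locally, because plasma lipoproteins hardly cross the blood-brain barrier. The transcription factor SREBP2 switches on the synthesis enzymes when membrane sterol runs low, while excess sterol is loaded by ABC transporters onto apolipoprotein E particles under the control of the liver X receptors. Oxysterols are hydroxylated cholesterol products: neurons use one to export cholesterol from the brain, and macrophages stimulated through toll-like receptors or by interferon make another, 25-hydroxycholesterol, with the enzyme encoded by Ch25h.

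The arrays differed in ways that the treatment labels do not give. The first principal component, with 54.5% of the variance, set LPS replicates 1 and 2 apart from the rest. These had median log2 values of 7.09 and 7.11 against 6.96 in LPS replicate 3 and 6.95 to 6.98 in the PBS arrays. The neuronal gene Snap25 was bright in every array, with log2 expression from 13.46 to 13.71, and neurons hold it in abundance. Differences were tested by limma, a linear model with moderated variances, over all 35556 clusters, and a gene was called at a Benjamini-Hochberg adjusted p under 0.05. This called 0.652% of clusters higher and 0.0619% lower after LPS.

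Of the 31 genes, Ch25h was the only one called, with log2 expression 0.94 higher in LPS-treated mice than in vehicle-treated controls, a 1.92-fold increase. No member was called lower, and the other 30 failed the test. At an unadjusted limma p under 0.05, Ch25h and Scarb1 were higher and Apoe was lower, that is 2 of 31 and 1 of 31. By the same threshold 7.69% of all clusters were higher and 6.58% lower, and of the 19938 genes 1245 were higher and 1443 lower. The median log2 fold change of the 31 genes was -0.04, against -0.02 over all 19938 genes. The sign was negative in 21 and positive in 10 of the 31 genes, and it was negative in 54.5% of all genes. All 3 LPS arrays lay above all 3 PBS arrays for Ch25h, Scarb1 and Srebf2, 3 of 31 genes against 9.73% of all clusters, and below them for Apoe, Mvd and Npc1, 3 of 31 against 10.3%. With 3 mice per group an exact two-sided permutation test of 1 gene cannot go below a p of 0.1.

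**Figure D1:**
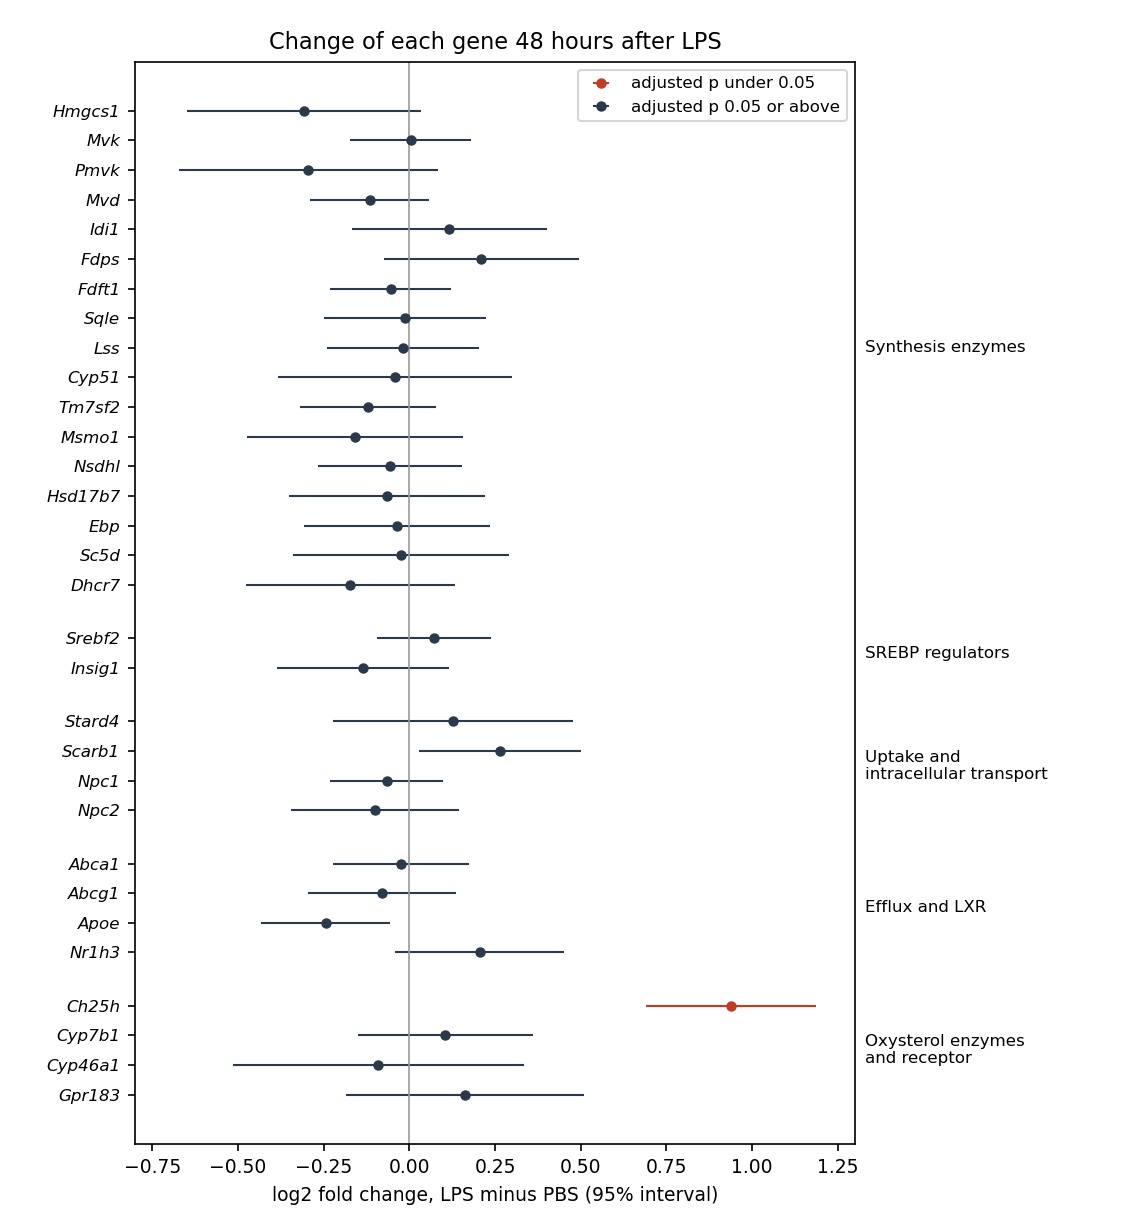
Log2 fold change of each of the 31 genes in LPS-treated mice minus vehicle-treated controls (x axis), with genes in rows ordered by role. Points are differences of group means of 3 arrays each and bars their 95% confidence intervals from limma. Ch25h, in red, is the only gene with an adjusted p under 0.05, and the intervals of all other genes except Scarb1 and Apoe include 0.

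Ch25h encodes cholesterol 25-hydroxylase, an intronless gene that lies on the minus strand of chromosome 19 of GRCm38.p6 from 34473783 to 34475148. Its promoter is shown because it is the only member with a called change, and none of the motifs searched for the pathway was found in it. The sequence, from RefSeq and in the direction of transcription, covers the 250 bases before the start of the gene, chr19:34475149-34475398, with a palindromic TGACGTCA, the cyclic AMP response element, in capitals.
Ch25h promoter: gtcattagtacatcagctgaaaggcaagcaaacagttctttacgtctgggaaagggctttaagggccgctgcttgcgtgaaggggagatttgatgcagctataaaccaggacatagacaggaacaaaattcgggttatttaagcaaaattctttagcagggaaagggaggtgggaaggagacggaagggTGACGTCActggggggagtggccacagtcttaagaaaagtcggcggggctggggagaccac

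The element starts at position -61 from the transcription start, and it was searched for only after this sequence had been seen. On both strands, 1.79% of the 32851 promoter windows of the mouse set, which run from 250 bases before each start to just past it, hold TGACGTCA. The other motifs were the sterol regulatory element core TCACNCCAC, the CCAAT box and 2 repeats. The repeats were GGTCA in the same direction with 4 bases between, and GAAA with 2 bases between (as in interferon-stimulated response elements). The GGTCA repeat does not have the spacing of a liver X receptor element, so such elements were not searched for. Of all windows, 1.24% hold the sterol element core, 37.4% the CCAAT box and 0.0457% the GGTCA repeat. The GAAA repeat is in 3.44% of windows, and it was found in the Ebp window and in no other member. A motif match is a description of letters in this window and does not show a bound factor.

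In the LPS-treated mice Ch25h had log2 expression of 6.96, 6.75 and 6.62, against 5.80, 5.90 and 5.82 in the vehicle-treated controls. Every LPS mouse was above every PBS mouse, and the lowest LPS value was well clear of the highest PBS value. The means were 6.78 ± 0.17 in LPS-treated mice and 5.84 ± 0.05 in vehicle-treated controls (SD, n = 3 each). The log2 fold change of 0.94 had a standard error of 0.10 and a 95% confidence interval from 0.69 to 1.19 (adjusted p = 0.0150 from limma), and its exact permutation p was 0.1. The signal of the controls was dim. Their mean lay at percentile 60.1 of 1194 genes for olfactory or vomeronasal receptors, a class with little transcription in brain and with a median of 5.73 in the PBS arrays. All 3 LPS values exceeded the receptors' percentile 95 on their own arrays, which was 6.54, 6.64 and 6.46. The fold change therefore runs from a background-like level, which can make it smaller than the change in RNA.

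The call of Ch25h ended when any PBS replicate was left out (adjusted p = 0.0962, 0.0882 and 0.0966 from limma without PBS 1, 2 and 3) and without LPS replicate 2 (adjusted p = 0.0654), and it was not called by the methods' t-test (adjusted p = 0.132), while the log2 fold change remained between 0.85 and 1.02 in all 6 fits with 1 array left out. Without LPS replicates 1 and 2 together, which leaves 1 LPS array assumed to vary like the PBS arrays, it was 0.78 (adjusted p = 0.103 from limma).

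Markers of some cell types were, like Ch25h, higher in LPS-treated mice than in vehicle-treated controls. Of 10 endothelial markers 8 were higher and none was lower, with a median log2 fold change of 0.97, and the mean log2 level of the list was 8.71 to 8.79 in LPS arrays and 7.70 to 7.87 in PBS arrays. Of 10 markers of activated macrophages 5 were higher and none was lower, with a median of 1.11, and the list mean was 7.83 to 7.99 in LPS arrays and 6.92 to 7.03 in PBS arrays. None of 9 homeostatic microglia, 10 astrocyte, 9 oligodendrocyte, 10 neuron, 8 choroid plexus or 9 blood leukocyte markers was called. The median log2 fold changes of these lists ran from -0.10 to 0.08, and single markers in them ran from -0.41 to 0.56. Among the LPS mice Ch25h was highest in replicate 1 and lowest in replicate 3. The median deviation from the PBS mean ran the other way over replicates 1 to 3. It was 0.92, 0.93 and 1.08 for the endothelial list and 0.89, 0.97 and 1.21 for the activated macrophage list. The part of any of these cell types in the Ch25h result was not tested. In whole brain RNA, more cells of a type and more RNA per cell cannot be told apart.

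**Figure D2:**
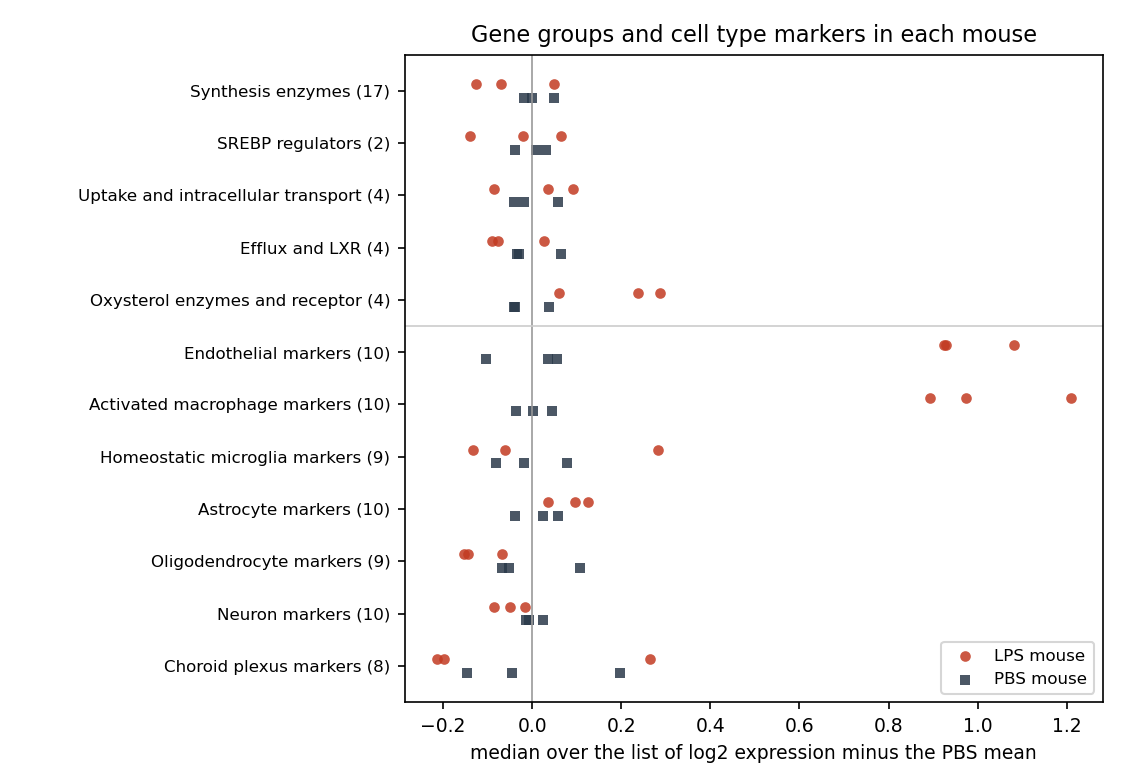
Log2 expression relative to the PBS mean (x axis), as the median over each gene list, with 1 symbol per mouse, red circles for LPS and dark squares for PBS, and the number of genes in brackets. The endothelial and activated macrophage lists lie well to the right in all 3 LPS mice, whereas the medians of the synthesis enzymes lie between -0.13 and 0.05 in LPS mice and between -0.02 and 0.05 in PBS mice.

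The other genes of oxysterol metabolism did not pass the test. Gpr183 encodes a receptor by which oxysterols made from 25-hydroxycholesterol guide lymphocytes and dendritic cells. Its log2 expression was 6.08, 6.62 and 6.50 in LPS-treated mice and 6.20, 6.18 and 6.33 in vehicle-treated controls, so that LPS replicates 2 and 3 were above all controls and LPS replicate 1 was below them (log2 fold change 0.16, 95% confidence interval -0.18 to 0.51, adjusted p = 0.639 from limma). Its mean in the controls was at percentile 87.9 of the receptor genes.

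Cyp7b1, whose product adds a hydroxyl group to 25-hydroxycholesterol on the way to the Gpr183 ligand, had 9.41, 9.33 and 9.54 in LPS-treated mice and 9.51, 9.23 and 9.23 in vehicle-treated controls. The groups overlapped through PBS replicate 1 (log2 fold change 0.11, 95% confidence interval -0.15 to 0.36, adjusted p = 0.682 from limma). Cyp46a1, the neuronal 24-hydroxylase that turns cholesterol into the form exported from brain, had a log2 fold change of -0.09 with a 95% confidence interval from -0.51 to 0.33 (adjusted p = 0.847 from limma). Its LPS arrays, at 10.68, 10.84 and 10.16, spread more widely than its PBS arrays, at 10.54, 10.62 and 10.78, and LPS replicate 3 was the low one.

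**Figure D3:**
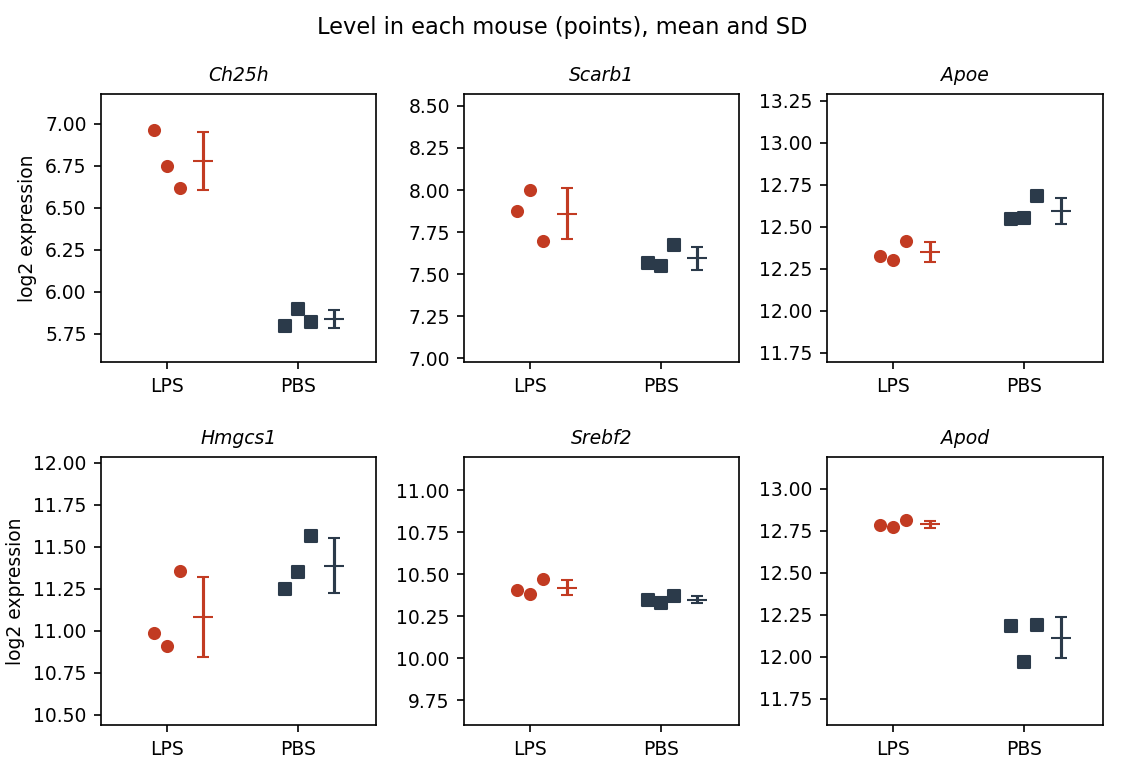
Log2 expression of Ch25h, Scarb1, Apoe, Hmgcs1, Srebf2 and Apod in each mouse (points), with the group mean and SD beside them (n = 3 each). Each panel spans its own range of the log2 scale, and the groups do not overlap in any panel except that of Hmgcs1, where LPS replicate 3 lies among the PBS arrays.

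Of the enzymes of cholesterol synthesis, 17 of 18 were measured, and none was called higher or lower. None had an unadjusted limma p under 0.05 either. Over all genes the median log2 fold change was -0.02, and 54.5% were negative. In this group log2 fold changes ran from -0.31 for Hmgcs1 to 0.21 for Fdps with a median of -0.05, and 14 of the 17 were negative. The 95% confidence intervals of all 17 lay between -0.67 and 0.49, that is between 0.628-fold and 1.41-fold. A doubling of the array signal of any of these genes at 48 hours lay outside them. The intervals are of array signal and not of RNA amount. Adjusted p ran from 0.388 to 0.987 from limma.

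Promoters are shown for enzymes of this group because the CCAAT box, which binds NF-Y, a partner of SREBP2 at sterol-regulated genes, recurred in them. Of the 31 genes, 23 had a RefSeq promoter window. The CCAAT letters were in 18 of the 23 and in all 14 synthesis enzymes with a window, against 41.1% of 27025 genes with a window. A gene was counted when any of its windows held the letters. Dhcr7 had 3 windows and Pmvk had 2, and only 1 window of each held them. The sterol regulatory element core TCACNCCAC was found in Hmgcs1 and in no other member, against 1.44% of genes. The windows below are in the direction of transcription with the motif in capitals, and ATTGG is CCAAT read on the other strand. They are from GRCm38.p6, on the plus strand for Hmgcs1 (chr13:119690204-119690232 and chr13:119690296-119690320), Idi1 (chr13:8885582-8885605), Lss (chr10:76531533-76531557) and Dhcr7 (chr7:143830155-143830179), and on the minus strand for Mvd (chr8:122443435-122443459) and Cyp51 (chr5:4104712-4104736).
Hmgcs1 sterol regulatory element: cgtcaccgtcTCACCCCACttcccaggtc
Hmgcs1 CCAAT box: cccgcctctcATTGGctgaaagcgg
Mvd CCAAT box: ggccagcgggCCAATcatatggcag
Idi1 CCAAT box: ccaaggtgccATTGGctggcgacc
Lss CCAAT box: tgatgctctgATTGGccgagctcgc
Cyp51 CCAAT box: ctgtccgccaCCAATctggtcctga
Dhcr7 CCAAT box: tccacttccgATTGGtcgtctgtga

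Of the enzymes whose promoters are shown, Idi1 alone had a positive log2 fold change. Hmgcs1 encodes the cytosolic synthase that condenses acetyl groups into hydroxymethylglutaryl-CoA, and it had the lowest fold change of the group. Its log2 expression was 10.99, 10.91 and 11.35 in LPS-treated mice, against 11.25, 11.35 and 11.57 in vehicle-treated controls. LPS replicates 1 and 2 were below all controls and LPS replicate 3 was among them (log2 fold change -0.31, 95% confidence interval -0.65 to 0.03, adjusted p = 0.388 from limma). Without LPS replicate 3 the log2 fold change was -0.44 (adjusted p = 0.0579 from limma), and with LPS replicate 3 alone it was -0.04.

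Among the next steps, Pmvk, the phosphomevalonate kinase, had 7.63, 7.11 and 7.49 in LPS-treated mice and 7.49, 7.86 and 7.77 in vehicle-treated controls. LPS replicate 2 was the lowest array, and LPS replicate 1 lay among the controls (log2 fold change -0.29, 95% confidence interval -0.67 to 0.08, adjusted p = 0.434 from limma). Fdps, which makes farnesyl pyrophosphate, had 8.67, 8.30 and 8.62 in LPS-treated mice and 8.21, 8.32 and 8.42 in vehicle-treated controls. Here LPS replicates 1 and 3 were above all controls and LPS replicate 2 was among them (log2 fold change 0.21, 95% confidence interval -0.07 to 0.49, adjusted p = 0.457 from limma).

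Mvd, the decarboxylase that closes the mevalonate steps, was the only synthesis gene whose groups did not overlap, with all LPS arrays below all PBS arrays (log2 fold change -0.12, adjusted p = 0.50 from limma). Mvk, the mevalonate kinase, had a log2 fold change of 0.00. Idi1, the isomerase that makes the building blocks of farnesyl pyrophosphate, had a value of 0.12, and a dimmer cluster that also names it alone had 0.33 (adjusted p = 0.397 from limma).

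For Fdft1, the squalene synthase, the log2 fold change was -0.05 in the brighter of its clusters and -0.07 in the other. Sqle, the squalene epoxidase, and Lss, which folds the epoxide into lanosterol, had -0.01 and -0.02, and Cyp51, which demethylates lanosterol, had -0.04. Among the later enzymes, values were -0.12 for the reductase gene Tm7sf2, -0.16 for Msmo1 and -0.06 for Nsdhl, which act in sterol demethylation, -0.07 for Hsd17b7, -0.04 for the isomerase gene Ebp and -0.02 for the desaturase gene Sc5d. Dhcr7, whose product catalyses the last step to cholesterol, had -0.17 (adjusted p = 0.567 from limma). For Mvk, Sqle, Lss, Cyp51, Nsdhl, Hsd17b7, Ebp, Sc5d, Idi1 and Dhcr7 the sign changed under 1 or more of the alternative settings tried.

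The synthesis enzymes varied more among the LPS arrays than among the PBS arrays, with a median SD over the 17 genes of 0.15 in LPS-treated mice and 0.09 in vehicle-treated controls. This was not particular to them. The median SD was also larger in LPS arrays in the other member groups and in most marker lists, such as choroid plexus (0.42 against 0.19). It was smaller in the astrocyte and oligodendrocyte lists (0.06 against 0.12 in the latter). The median deviation of the synthesis enzymes from the PBS mean was -0.07, -0.13 and 0.05 in LPS replicates 1, 2 and 3, against 0.05, -0.02 and -0.00 in the PBS arrays. LPS replicate 3 was above both other LPS arrays in 12 of the 17 genes. With LPS replicates 1 and 2 both left out the median log2 fold change was 0.05, so that the negative median rests on these arrays. Over all genes LPS replicate 3 exceeded the mean of the other LPS arrays by a median of 0.04, over the synthesis enzymes by 0.13, over choroid plexus markers by 0.65 and over homeostatic microglia markers by 0.40. Oligodendrocytes hold much of the cholesterol of brain, and the mean log2 level of their markers was 11.11 to 11.21 in LPS arrays and 11.18 to 11.37 in PBS arrays. The part of these cells in the synthesis values was not tested.

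**Figure D4:**
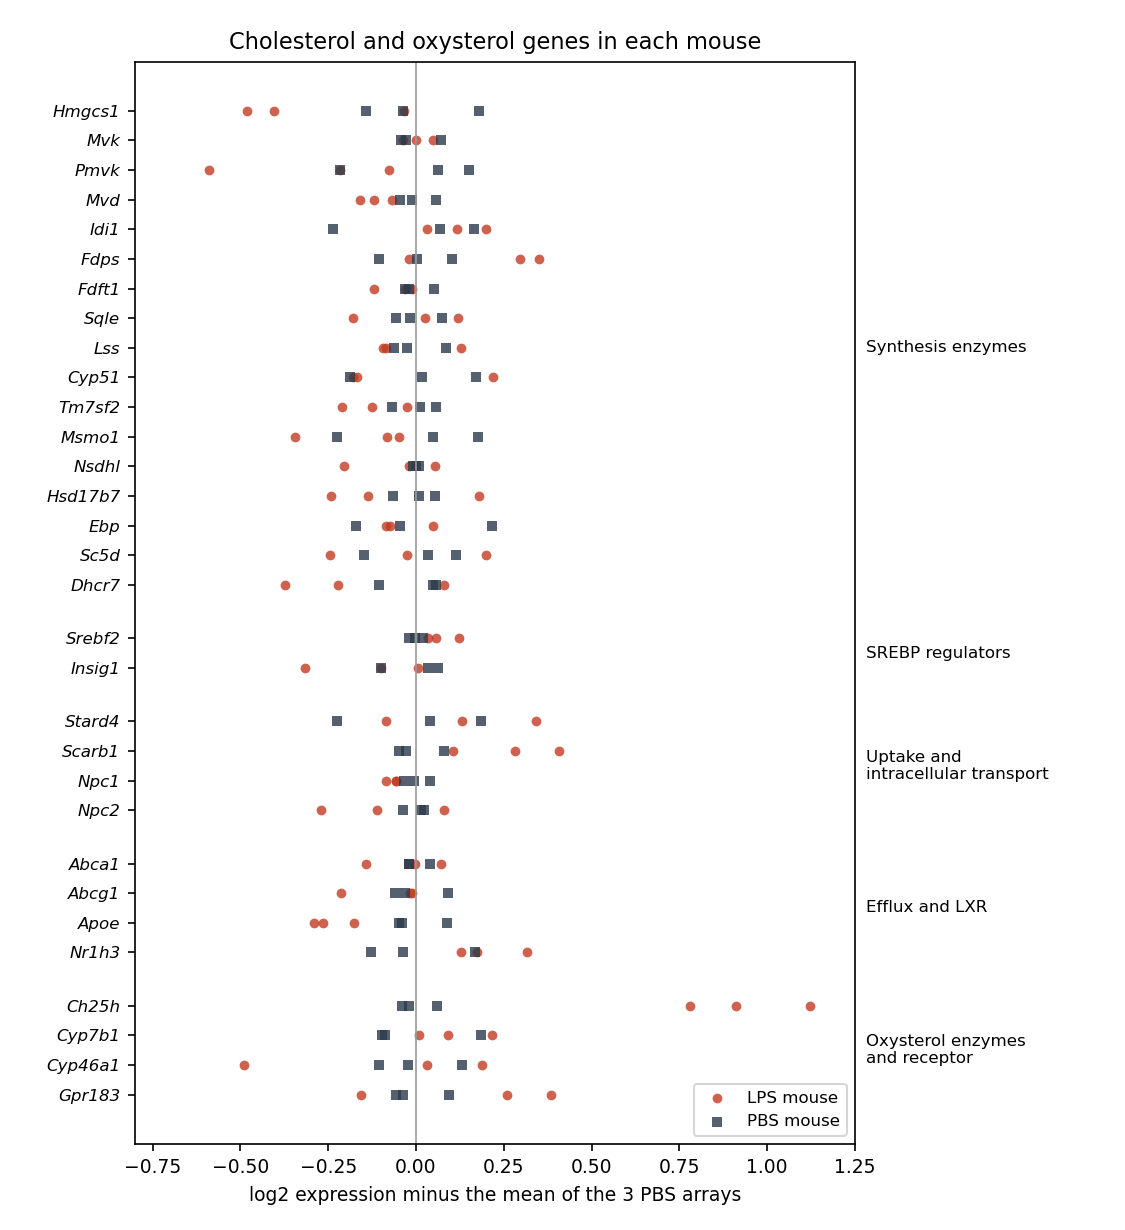
Difference in log2 expression from the PBS mean (x axis) for each of the 31 genes (rows, by role), with 1 symbol per mouse, red circles for LPS and dark squares for PBS. The LPS mice lie apart from the controls for Ch25h, whereas for most synthesis enzymes the symbols of both groups mix.

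The regulators of synthesis did not pass the test. Srebf2, which encodes SREBP2, had log2 expression of 10.41, 10.38 and 10.47 in LPS-treated mice and 10.35, 10.33 and 10.37 in vehicle-treated controls. The groups did not overlap, but the gap was narrow, and the log2 fold change of 0.07 had a 95% confidence interval from -0.09 to 0.24 (adjusted p = 0.666 from limma). Centring each array on its median made it negative, at -0.02. Insig1, a target of SREBP2 whose product holds it in the endoplasmic reticulum, had 10.68, 10.46 and 10.78 in LPS-treated mice and 10.84, 10.81 and 10.67 in vehicle-treated controls. The groups overlapped, with LPS replicate 2 lowest (log2 fold change -0.14, 95% confidence interval -0.39 to 0.12, adjusted p = 0.582 from limma).

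Of the genes of uptake and intracellular transport, 4 of 5 were measured, and none was called. Scarb1 encodes SR-BI, a receptor for high density lipoprotein that is also present on brain endothelium. Its log2 expression was 7.88, 8.00 and 7.70 in LPS-treated mice, against 7.57, 7.55 and 7.67 in vehicle-treated controls. The groups did not overlap, with LPS replicate 3 just above PBS replicate 3. The log2 fold change was 0.26 with a 95% confidence interval from 0.03 to 0.50 (unadjusted p = 0.0330 and adjusted p = 0.312 from limma). It was positive in all alternative settings tried, from 0.10 to 0.34, and 0.10 was the value with LPS replicate 3 as the only LPS array. The endothelial markers given above were also higher, and their part in the Scarb1 value was not tested.

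Npc1 and Npc2 act together to release cholesterol from lysosomes. Npc1 had 10.74, 10.77 and 10.77 in LPS-treated mice and 10.82, 10.79 and 10.86 in vehicle-treated controls, all LPS arrays being below all PBS arrays by a small margin (log2 fold change -0.07, adjusted p = 0.688 from limma). Npc2 had 8.97, 8.81 and 9.16 in LPS-treated mice and 9.04, 9.09 and 9.10 in vehicle-treated controls, with LPS replicates 1 and 2 below and LPS replicate 3 above the controls (log2 fold change -0.10, adjusted p = 0.684 from limma). Stard4, a cytosolic sterol carrier, had overlapping groups (log2 fold change 0.13, adjusted p = 0.722 from limma). The median of the 4 genes was 0.03, and centring each array on its median turned it to -0.06.

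Of the genes of efflux and its receptors, 4 of 5 were measured, and none was called. Apoe, which encodes the main lipid carrier protein of brain, secreted largely by astrocytes, had log2 expression of 12.33, 12.30 and 12.41 in LPS-treated mice, against 12.54, 12.55 and 12.68 in vehicle-treated controls. Every LPS mouse was below every PBS mouse. The means were 12.35 ± 0.06 in LPS-treated mice and 12.59 ± 0.08 in vehicle-treated controls (SD, n = 3 each). The log2 fold change was -0.24, or 0.844-fold, with a 95% confidence interval from -0.43 to -0.06 (unadjusted p = 0.0183 and adjusted p = 0.269 from limma), so that it did not pass. It was negative in all alternative settings tried, from -0.34 to -0.18. None of 10 astrocyte markers was called. Their log2 fold changes ran from -0.41 to 0.56 with a median of 0.08. The part of astrocytes in the Apoe value was not tested.

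Nr1h3, which encodes liver X receptor alpha, had 6.26, 6.31 and 6.45 in LPS-treated mice and 6.10, 6.30 and 6.01 in vehicle-treated controls. LPS replicates 2 and 3 were above all controls, and LPS replicate 1 was below PBS replicate 2 (log2 fold change 0.21, 95% confidence interval -0.04 to 0.45, adjusted p = 0.410 from limma). Its mean in the controls was at percentile 82.3 of the receptor genes, so that it too was dim. The transporter genes Abca1 and Abcg1, targets of the liver X receptors that pass cholesterol to lipoproteins, had log2 fold changes close to 0. Abcg1 had 9.71, 9.70 and 9.51 in LPS-treated mice and 9.69, 9.66 and 9.81 in vehicle-treated controls, with LPS replicate 3 lowest (log2 fold change -0.08, 95% confidence interval -0.30 to 0.13, adjusted p = 0.715 from limma). Abca1 had a log2 fold change of -0.03 with a 95% confidence interval from -0.22 to 0.17 (adjusted p = 0.915 from limma). The GGTCA repeat described above was in no member with a promoter window, and Abcg1 had no window. Only 0.0518% of genes held the repeat, so its absence says nothing about these members.

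Of 43 further genes of the same pathways, 36 were measured. Of these 1 was called higher, 0 were called lower and 35 failed the test, with a median log2 fold change of 0.03. Over all clusters 0.652% were called higher and 0.0619% lower. The called gene was Apod, which encodes apolipoprotein D, a lipocalin of glia and vessels. It had log2 expression of 12.78, 12.77 and 12.81 in LPS-treated mice, against 12.18, 11.97 and 12.19 in vehicle-treated controls. The LPS arrays lay close together and all above the controls, at a log2 fold change of 0.68 with a 95% confidence interval from 0.47 to 0.88, or 1.6-fold (adjusted p = 0.0249 from limma). The call ended when any array but LPS replicate 3 was left out (adjusted p = 0.0968 to 0.123 from limma) and on centring by array medians (adjusted p = 0.0830). It also ended without LPS replicates 1 and 2 together (adjusted p = 0.195 from limma) and by the methods' t-test (adjusted p = 0.123).

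In the other lists no gene passed. The smallest p among 4 other synthesis genes was that of Tmem97, a sterol-regulated membrane protein, at -0.16 (adjusted p = 0.610 from limma). Among 5 other SREBP regulators and targets it was that of Mylip, a ligase that targets lipoprotein receptors for degradation, at -0.12 (adjusted p = 0.592), and among 9 other uptake, transport and hydrolysis genes that of Lrp8, an apolipoprotein E receptor of neurons, at 0.19 (adjusted p = 0.352). Among 7 other oxysterol and bile acid genes it was that of Cyp11a1, which cleaves the cholesterol side chain to make pregnenolone. Cyp11a1 had 5.58, 5.57 and 5.30 in LPS-treated mice and 5.92, 5.82 and 5.89 in vehicle-treated controls (log2 fold change -0.39, adjusted p = 0.187 from limma). All LPS arrays were below the controls, at levels in the range of the receptor genes, whose median in the PBS arrays was 5.73. At an unadjusted p under 0.05, Apod, Pltp and Hsd3b7 were higher and Cyp39a1 and Cyp11a1 were lower, 3 and 2 of the 36 genes, near the shares of all clusters, 7.69% higher and 6.58% lower.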

How the data were processed

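The authors deposited log2 values per cluster, which they made by RMA, which corrects background, normalizes between arrays and summarises probes per cluster. The methods name 2 versions of RMA, and the version behind these values is not given in those methods. The number of arrays sets the precision.

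No further normalization or filter was applied. Gene names of clusters came from GEO's platform annotation, updated by gene identifier. Of the clusters, 21789 named 1 gene, 1621 several and 12146 none. Both groups were compared two-sidedly in R 4.3.3 with limma 3.58.1 (lmFit, then eBayes). All 35556 clusters entered the Benjamini-Hochberg adjustment, and calls were made under 0.05. The labels call the arrays biological replicates. The procedure was tested on simulated data. Promoter windows were RefSeq sequences of GRCm38.p6.

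The members and lists were chosen with earlier results of these data known, so that no list was tested as a set. All members could be named. Values in every array were given for called members and for the 3 with the smallest p in each group. They were also given for Cyp46a1, which is outside this rule. Of other pathway genes they were given for called ones, and each list's smallest p was named. Values of Mvd, Npc1 and Cyp11a1 and the counts at an unadjusted p under 0.05 were added after they were seen. Alternatives were the methods' t-test, eBayes with a trend, array weights, quantile normalization, centring on array medians, leaving out the 40% dimmest clusters, clusters naming 1 gene, the replicate number as a block, an adjusted threshold of 0.1, an offset of 32, the mean of a gene's clusters and each array left out in turn. Leaving out LPS replicates 1 and 2 together was chosen after seeing the data.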

Additional observations from a re-analysis of the deposited data

How the results depend on the processing

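Of the 17 alternatives that tested Ch25h, the threshold of 0.1 could not end its call. The mean of a gene's clusters left its values as they were, since 1 cluster names it alone. Ch25h was called in 10 of the 17, with log2 fold changes from 0.67 to 1.11, and the 40% filter left it out as dim. It was not called by the methods' t-test (adjusted p = 0.132), with the replicate number as a block (adjusted p = 0.0791 from limma), without any PBS replicate, without LPS replicate 2, or without LPS replicates 1 and 2 together. The members called higher, 1 in the report, were 0 by the methods' t-test, 0 with the 40% filter, 0 with the block, 0 without LPS replicates 1 and 2 together, and 0 to 1 with single arrays left out. Array weights, which gave LPS replicate 1 a weight of 8.69, called 3 of 31 members higher (Ch25h, Fdps and Scarb1) and 3 lower (Hmgcs1, Tm7sf2 and Apoe). Of all 35556 clusters, array weights called 4751 higher and 3572 lower. The call of Apod also ended with the block (adjusted p = 0.103 from limma). Over all members and settings no called value changed sign.

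The clusters called, 254 in the report, were 5 by the methods' t-test, 8323 with array weights, 151 with centring, 80 with the block, 83 without LPS replicates 1 and 2 together, 420 at an adjusted p under 0.1 and 74 to 3792 with single arrays left out; without LPS replicate 3 they were 3792, and the cause was not tested. Labels give both groups the numbers 1 to 3, and the block pairs arrays by these numbers alone. Deviations from the group means had correlations of 0.09, -0.05 and 0.10 between same-numbered arrays. LPS replicates 1 and 3 correlated best with the PBS array of their own number, and LPS replicate 2 with PBS replicate 1 (0.15). Correlations this small, from groups of 3 arrays, cannot show whether arrays were paired. Centring on array medians moved the median of all clusters to -0.09, and the medians of synthesis enzymes to -0.15, of transport genes to -0.0601 and of efflux genes to -0.14; higher and lower clusters at an unadjusted p under 0.05 were then 1718 and 4147, against 2384 and 3166 with quantile normalization. The synthesis median was 0.0496 without LPS replicates 1 and 2 together, and the oxysterol median was 0.0078 with the 40% filter, where 2 genes remained. Dim signal limits Ch25h, Gpr183, Nr1h3 and Cyp11a1.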
